A study of Mus musculus with 4 samples.

Results

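The genes described here are 46 genes of the cell cycle and of DNA replication, taken from the 21153 named genes on a mouse expression array and read in whole livers of wild type and Cyp3a-/- mice. A probe was assigned to a gene through the transcript accession that the array files give for it, and 61 probes matched the 46 genes. By role, 16 of the genes act in S phase, 24 act in M phase and 6 control the step from G1 into S. Of the 46 genes, 39 passed the filter, which required, in both livers of 1 genotype or the other, a probe whose spot the scanner software marked as well above background. A further 3 genes, Top2a, Kif11 and Bub1b, were well above background in wild type liver 2 alone, and Aurkb, Bub1, Ccne2 and Cdc6 were so in no liver.

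The study set the liver of mice that lack the Cyp3a gene cluster (Cyp3a-/-), a group of drug- and steroid-oxidizing cytochrome P450 genes, against wild type liver. Each genotype had 2 animals, each read on its own array with a single Cy3 dye, and the labels give neither treatment, strain, sex, age nor the origin of the knockout line. Per the labels the animals differ and the experiments were independent, and what a replicate number stands for is not stated. The p-values measure the spread between these livers, which for Cyp3a-/- also holds any difference between slides. The 2 wild type livers lay on 1 slide and each Cyp3a-/- liver on a slide of its own. No slide held both genotypes, so a genotype difference cannot be told apart from a difference between slides. A difference between the wild type livers lies within 1 slide, while a difference between the Cyp3a-/- livers crosses slides.

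In most cells of an adult liver the cell cycle is at rest, and the few that divide first make their replication genes and later their mitotic genes. E2F factors switch on the S phase set, which loads helicases on DNA, supplies deoxynucleotides and copies the genome. The MuvB complex with B-Myb and FOXM1 switches on the later set, whose cyclins, kinases and spindle proteins carry out mitosis, and in resting cells the same core complex with repressive E2F and pocket proteins (DREAM) holds these genes down. The liver also adds polyploid hepatocytes, which pass S phase without completing division, and E2F8 is a known regulator of that programme.

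All levels below are log2 processed signals minus the array's 75th percentile, so a value of 0 marks that percentile and a step of 1 is a doubling. The 75th percentile lay between 308 and 352.5 intensity units on the 4 arrays, the share of probes well above background ran from 54.36% to 56.4%, and no spot was saturated. Cyp3a11, a gene of the deleted cluster, stood at 7.94 and 8.09 in wild type livers 1 and 2 and at -6.98 and -6.93 in Cyp3a-/- livers 1 and 2. The last 2 values were not well above background, and Cyp3a11 was at least 7201-fold lower in Cyp3a-/- liver (limma, adjusted p = 1.38471e-05), so the arrays carry the genotypes of their labels. An "at least" fold sets the bright group's mean against the higher of the dim probe's own signal and the lowest signal well above background on each array. The samples are whole liver, in which fewer cycling cells and less RNA per cycling cell cannot be told apart.

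Cell cycle genes were mostly lower in Cyp3a-/- liver, but no difference passed the test across the whole array. Of the 39 genes, 33 had a lower mean in Cyp3a-/- liver and 6 a higher one, and the median log2 difference was -0.83, beside 0.01 over all 17406 features tested. Limma with Benjamini-Hochberg adjustment called 0 of the 39 in either direction, where it called 0.276% of all features, 0.0977% as lower and 0.178% as higher. At an unadjusted p under 0.05, 15 were lower, where 5.4% of all features were, and 2 were higher, where 4.62% of all features were. These 17 became 7 without wild type liver 2, 26 without wild type liver 1, 10 with no filter on dim probes and 7 with the slide as a random block at a preset correlation of 0.5. Both Cyp3a-/- livers lay below both wild type livers for 26 of the 39, against 20.2% of all features, and above both for 4, against 22.6%. Of the 39, 34 were well above background in all 4 livers. Cdk1, Foxm1, Nusap1 and Tpx2 passed the filter only through the wild type livers and Tyms only through the Cyp3a-/- livers, which by itself favours a difference in that direction.

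S phase and M phase genes stood apart in how far they differed. The S phase genes had a median log2 difference of -0.36 between genotypes and the M phase genes one of -1.33. At an unadjusted p under 0.05, 6 of 15 S phase genes were lower and 2 higher. Of 19 M phase genes 5 were lower and 0 higher, and of 5 G1/S control genes 4 were lower and 0 higher. Over all features 5.4% were lower and 4.62% higher. Both Cyp3a-/- livers lay below both wild type livers for 8 S phase, 13 M phase and 5 G1/S control genes, against 20.2% of all features. They lay above both for 3 S phase, 1 M phase and 0 G1/S control genes, against 22.6%. The M phase difference rested largely on wild type liver 2: without that liver the M phase median was -0.41, and without wild type liver 1 it was -2.32. Without wild type liver 2 the S phase median was -0.08, and without wild type liver 1 it was -0.64. With normexp background correction the M phase median was -0.60 and the S phase median -0.24.

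**Figure D1:**
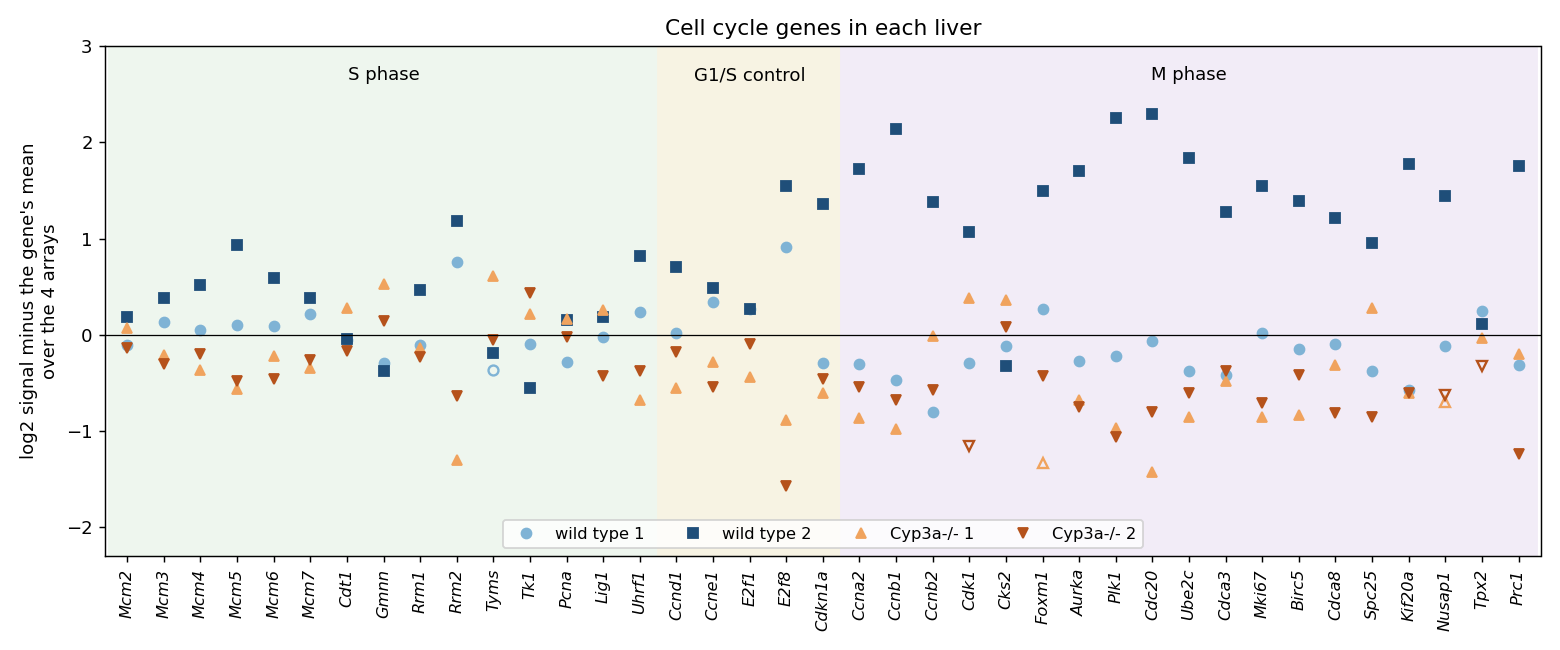
Log2 signal of each of the 39 cell cycle genes in each of the 4 livers (y axis), minus that gene's mean over the 4 arrays, with genes on the x axis grouped by phase; each point is 1 liver and open points were not well above background. Wild type liver 2 stands above the other 3 livers for 17 of 19 M phase genes, while among the 15 S phase genes it is highest for 9.

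The upstream sequences of the genes differ by phase, and 6 are shown because their genes carry the patterns below: Cdc20, Plk1 and Ccnb1 for M phase, Rrm2 and E2f8 for the widest gap between genotypes, and Mcm6 for the replicative helicase. Each runs 5′ to 3′ on the gene's strand and ends shortly after the transcript start, from RefSeq (build GRCm38.p6). Capitals mark 3 sets of letters on either strand: the cell cycle homology region to which MuvB binds (written TTTGAA, with TTTAAA allowed too), the box named CCAAT, and E2F-type letters. The last were TTCCCGC as one form, TTGGCGC as another, then TTCGCGC as a further form, and finally the form TTGCCGC. Matches of different sets can overlap and then form 1 run of capitals.
Cdc20, chr4:118437294-118437593, minus strand: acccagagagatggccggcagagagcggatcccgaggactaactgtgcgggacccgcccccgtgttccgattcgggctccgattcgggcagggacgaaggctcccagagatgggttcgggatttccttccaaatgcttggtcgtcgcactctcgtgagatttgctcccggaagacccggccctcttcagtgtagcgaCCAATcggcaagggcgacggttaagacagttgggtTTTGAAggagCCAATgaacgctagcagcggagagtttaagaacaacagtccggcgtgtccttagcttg
Plk1, chr7:122159185-122159484, plus strand: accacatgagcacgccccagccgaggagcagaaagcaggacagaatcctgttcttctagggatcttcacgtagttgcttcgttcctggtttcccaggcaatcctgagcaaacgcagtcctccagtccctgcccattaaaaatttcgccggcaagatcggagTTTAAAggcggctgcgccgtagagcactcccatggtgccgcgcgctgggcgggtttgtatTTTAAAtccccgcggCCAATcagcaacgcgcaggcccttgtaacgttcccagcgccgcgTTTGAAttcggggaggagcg
Ccnb1, chr13:100786437-100786736, minus strand: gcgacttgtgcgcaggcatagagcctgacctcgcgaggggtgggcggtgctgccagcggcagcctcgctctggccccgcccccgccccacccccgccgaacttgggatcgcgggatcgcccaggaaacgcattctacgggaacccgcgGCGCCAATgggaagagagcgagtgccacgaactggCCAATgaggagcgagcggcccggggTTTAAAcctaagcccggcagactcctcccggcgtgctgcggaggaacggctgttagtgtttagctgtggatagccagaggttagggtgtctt
Rrm2, chr12:24708004-24708303, plus strand: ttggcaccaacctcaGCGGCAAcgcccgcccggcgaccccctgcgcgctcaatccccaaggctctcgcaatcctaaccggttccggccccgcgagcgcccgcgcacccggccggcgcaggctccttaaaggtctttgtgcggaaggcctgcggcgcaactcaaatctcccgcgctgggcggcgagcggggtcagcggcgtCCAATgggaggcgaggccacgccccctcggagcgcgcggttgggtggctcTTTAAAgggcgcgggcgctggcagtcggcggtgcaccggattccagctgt
E2f8, chr7:48881547-48881846, minus strand: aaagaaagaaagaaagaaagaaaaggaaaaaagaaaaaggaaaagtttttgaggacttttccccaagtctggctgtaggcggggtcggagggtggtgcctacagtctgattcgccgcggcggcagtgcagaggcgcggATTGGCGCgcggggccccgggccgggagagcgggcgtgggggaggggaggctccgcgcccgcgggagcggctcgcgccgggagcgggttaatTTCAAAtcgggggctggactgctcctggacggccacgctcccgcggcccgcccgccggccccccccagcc
Mcm6, chr1:128359656-128359955, minus strand: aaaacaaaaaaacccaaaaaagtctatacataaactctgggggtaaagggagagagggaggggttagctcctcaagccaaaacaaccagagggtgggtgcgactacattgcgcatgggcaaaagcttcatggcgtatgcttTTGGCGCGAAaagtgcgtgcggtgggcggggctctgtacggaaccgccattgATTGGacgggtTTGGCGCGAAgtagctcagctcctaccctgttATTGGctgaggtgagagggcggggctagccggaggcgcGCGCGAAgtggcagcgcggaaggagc

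RefSeq windows were at hand for 37 of the 46 genes, as 43 windows of 300 bases. The cell cycle homology letters occurred in 17 of 20 M phase windows (85%), in 5 of 18 S phase windows (27.8%) and in 27.6% of all 32851 windows of the same length. The CCAAT box occurred in 90% of M phase windows, 61.1% of S phase windows and 37.4% of all windows. The E2F-type letters ran the other way, in 13 of 18 S phase windows (72.2%), 3 of 20 M phase windows (15%) and 9.57% of all. Plk1 has the homology letters 3 times and Mcm6 the E2F-type letters 5 times, as marked above. Such a match describes the letters and is no evidence of binding in these livers.

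Among the licensing genes, which load the MCM helicase on replication origins, the MCM subunits stood lower in Cyp3a-/- liver by small steps. Mcm5 stood at -2.28 and -1.45 in wild type livers 1 and 2 and at -2.95 and -2.87 in Cyp3a-/- livers 1 and 2, a difference of -1.04 ± 0.30 (SE; limma, adjusted p = 0.364). Mcm6, whose promoter is printed above, read 1.17 and 1.67 in wild type and 0.87 and 0.62 in Cyp3a-/- liver, a difference of -0.68. Mcm7 was the steadiest of these 3 within genotypes, at 1.53 and 1.70 against 0.97 and 1.05 (difference -0.60 ± 0.18, limma adjusted p = 0.372). For Mcm5, Mcm6 and Mcm7 the genotypes did not overlap. The gaps between their nearest livers were 0.58, 0.31 and 0.48, small beside the gaps of 1.79 for E2f8 and 1.39 for Rrm2 below.

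Mcm3 read -0.47 and -0.22 in wild type and -0.81 and -0.90 in Cyp3a-/- liver. Mcm4 read -0.47 and -0.0025 in wild type and -0.89 and -0.72 in Cyp3a-/- liver. Both were lower in both Cyp3a-/- livers, with differences of -0.52 and -0.56. Mcm2, the remaining subunit, did not separate the genotypes, at -2.86 and -2.57 against -2.68 and -2.89. The helicase subunits therefore ranged from a difference of -1.04 to one of -0.07.

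The loading factor Cdt1 and its inhibitor geminin (Gmnn) did not go with the helicase. Cdt1 read -0.27 and -0.26 in wild type and 0.06 and -0.38 in Cyp3a-/- liver, so the genotypes overlapped. Gmnn read -1.44 and -1.53 in wild type and -0.63 and -1.01 in Cyp3a-/- liver, higher in both Cyp3a-/- livers by 0.67 ± 0.21 (SE; limma, adjusted p = 0.389). Cdc6, which works with Cdt1, was not well above background in any liver on either of its probes.

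Genes of deoxynucleotide supply went in opposite directions. Rrm2, the regulated subunit of ribonucleotide reductase, read -0.15 and 0.27 in wild type livers 1 and 2 and -2.21 and -1.54 in Cyp3a-/- livers 1 and 2. That is a mean of 0.06 ± 0.30 against -1.87 ± 0.47 (SD, n = 2 each) and a 3.82-fold lower signal, with a gap of 1.39 between the lowest wild type and the highest Cyp3a-/- liver. Its limma difference of -1.93 ± 0.29 (SE) had an adjusted p of 0.134. Rrm1, the large subunit of the same enzyme, read -0.79 and -0.22 against -0.82 and -0.91, so wild type liver 1 lay barely above the Cyp3a-/- livers.

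Tk1, the thymidine kinase that salvages thymidine, was on the other side: 2.25 and 1.80 in wild type and 2.56 and 2.78 in Cyp3a-/- liver, higher in both Cyp3a-/- livers by 0.65 ± 0.23 (SE; limma, adjusted p = 0.454). Tyms, which makes thymidylate anew, lay near background at -4.81 and -4.63 in wild type and at -3.84 and -4.50 in Cyp3a-/- liver. Tyms was not well above background in wild type liver 1.

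At the fork and on new chromatin, the sliding clamp Pcna read 1.59 and 2.03 in wild type and 2.04 and 1.85 in Cyp3a-/- liver. The ligase Lig1, which seals Okazaki fragments, read 0.26 and 0.46 against 0.54 and -0.15. Neither of these separated the genotypes. Uhrf1, which recruits the maintenance DNA methyltransferase to hemimethylated DNA, read -3.04 and -2.46 in wild type and -3.96 and -3.66 in Cyp3a-/- liver, a difference of -1.06 ± 0.26 (SE; limma, adjusted p = 0.297).

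Of the genes that control entry into S phase, all 5 that passed the filter were lower in both Cyp3a-/- livers than in either wild type liver. Over all features 20.2% were so. None of the 5 passed the adjusted test. E2f8, an atypical E2F that represses E2F targets and drives hepatocyte polyploidy, had the widest gap between genotypes of the 39 genes. E2f8 read -0.39 and 0.25 in wild type livers 1 and 2 and -2.18 and -2.87 in Cyp3a-/- livers 1 and 2, with 1.79 between the nearest livers of the genotypes. Its mean was -0.07 ± 0.45 against -2.52 ± 0.49 (SD, n = 2 each), a 5.48-fold lower signal, and the limma difference of -2.45 ± 0.33 (SE) had an adjusted p of 0.103.

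The call for these genes depends on the livers used. E2f8 passed the threshold without Cyp3a-/- liver 1 (limma, adjusted p = 0.0305) and without Cyp3a-/- liver 2 (limma, adjusted p = 0.0365), and not without either wild type liver. Rrm2 passed it without Cyp3a-/- liver 2 (limma, adjusted p = 0.0209). Blocking on replicate number gave limma adjusted p-values of 0.0474 for Rrm2 and 0.0938 for E2f8. Over the 14 alternatives the E2f8 difference lay between -2.80 and -1.64, with limma adjusted p-values from 9.02e-12 to 0.611. That of Rrm2 lay between -2.27 and -1.29, with limma adjusted p-values from 3.72e-07 to 0.679. The lowest of each came with median scaling, under which limma gave all features a single variance.

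**Figure D2:**
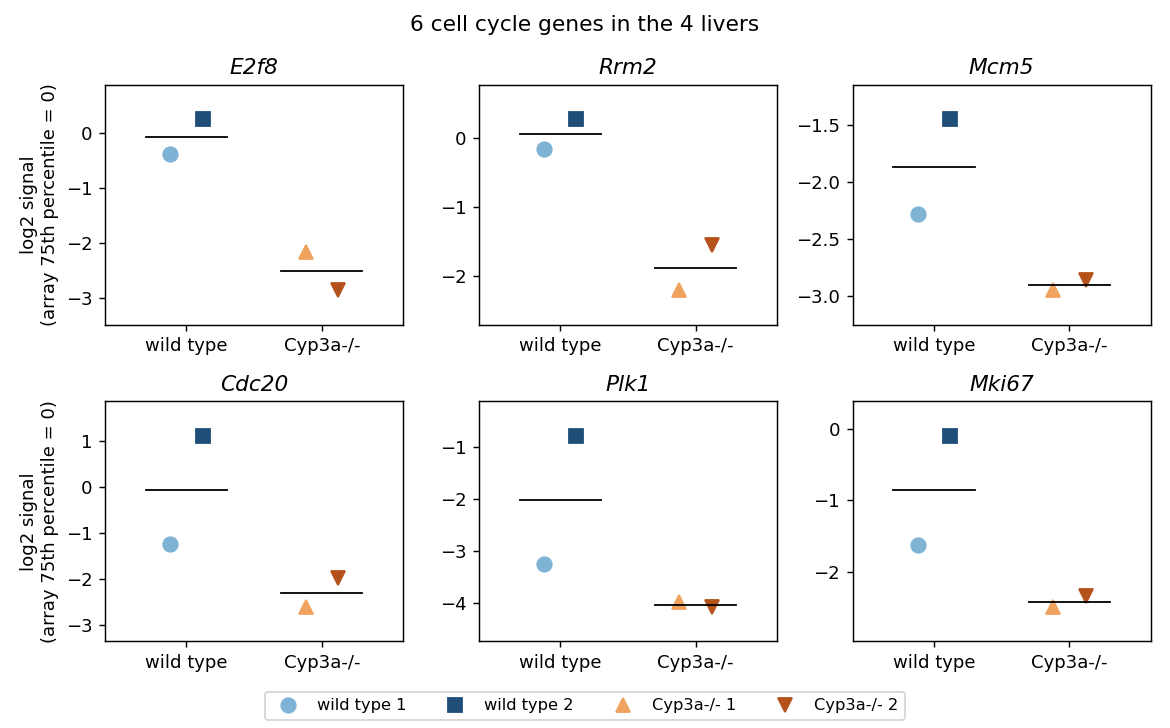
Level on the log2 scale, with 0 at the 75th percentile of the array (y axis), of 6 cell cycle genes in the 4 livers, each point 1 liver and each bar the mean of a genotype. For E2f8 and Rrm2 both wild type livers lie far above both Cyp3a-/- livers, while for the mitotic genes wild type liver 1 lies nearer to the Cyp3a-/- livers than to wild type liver 2.

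Cyclin E1 (Ccne1), partner of CDK2 at the start of S phase, read -1.42 and -1.29 in wild type and -2.05 and -2.31 in Cyp3a-/- liver, a difference of -0.83 ± 0.19 (SE; limma, adjusted p = 0.274). E2f1, an activator of S phase genes, read -0.75 and -0.76 against -1.46 and -1.12. Cyclin D1 (Ccnd1), through which growth signals reach the cycle, read 1.54 and 2.23 against 0.97 and 1.35. These 3 genes differed little between the wild type livers beside the M phase genes. Cdkn1a, which encodes the CDK inhibitor p21 and is induced by p53, read -2.77 and -1.12 in wild type livers 1 and 2 and -3.08 and -2.94 in Cyp3a-/- livers 1 and 2. Wild type liver 2 alone was high for Cdkn1a, 3.13-fold above wild type liver 1, and the genotype difference of -1.07 ± 0.53 (SE) had a limma adjusted p of 0.581.

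**Figure D3:**
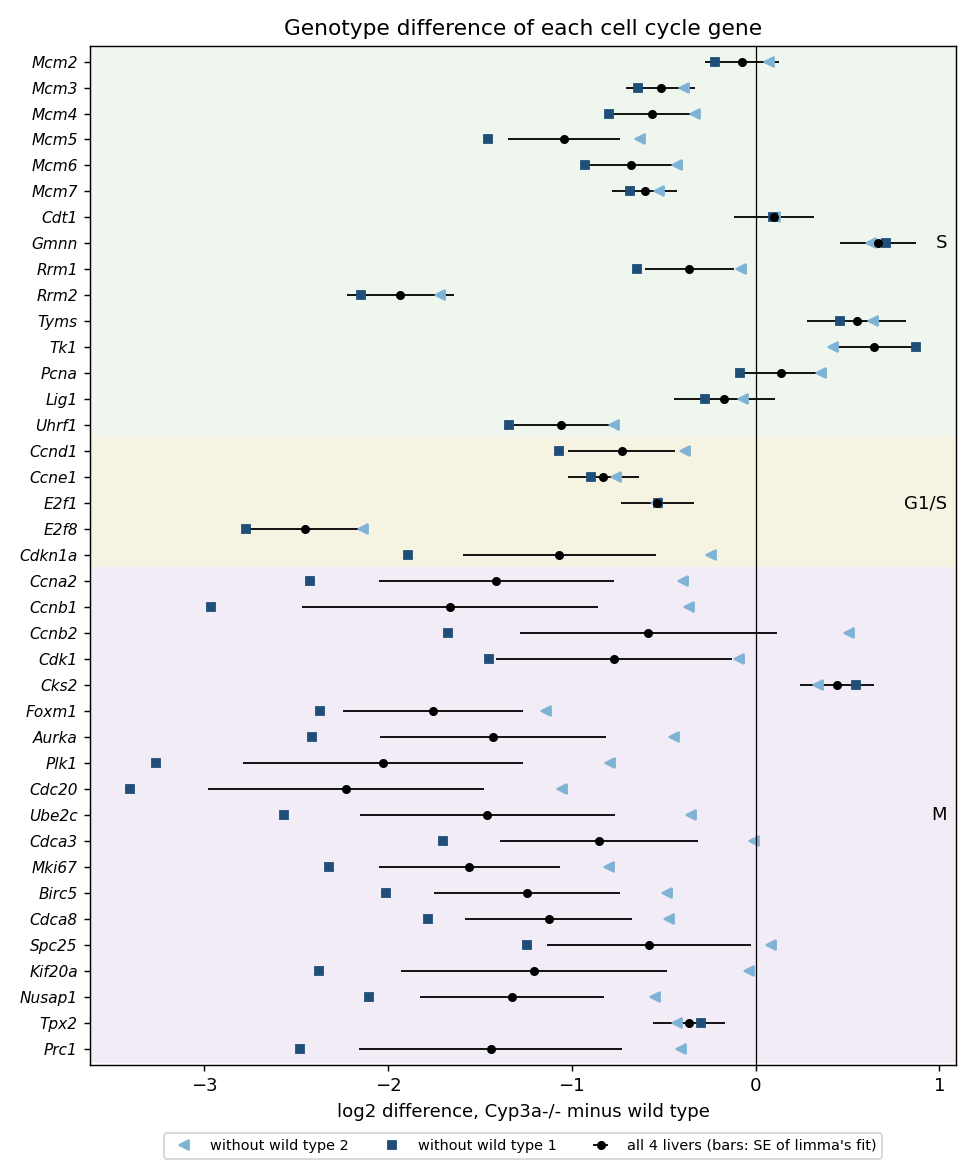
Log2 difference of each of the 39 cell cycle genes, Cyp3a-/- minus wild type (x axis), with genes on the y axis grouped by phase; bars are the standard error from limma with 2 livers per genotype. Of the 39 points 33 lie below 0, and the M phase genes other than Cks2 and Tpx2 have wider bars than the S phase genes.

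The M phase genes were high in wild type liver 2 and low in the other 3 livers. For 17 of the 19 that passed the filter, wild type liver 2 was the highest of the 4, as it was for 24% of all features. The same 17 of 19 stood more than 1 log2 unit higher in wild type liver 2 than in wild type liver 1, and 0 of 15 S phase genes did, where 0.856% of all features did. Between the 2 wild type livers the median step was 1.69 for M phase genes, 0.29 for S phase genes and -0.02 for all features, whose 99th percentile was 0.94. This step sets 1 liver against 1 liver and has no replicate check.

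**Figure D4:**
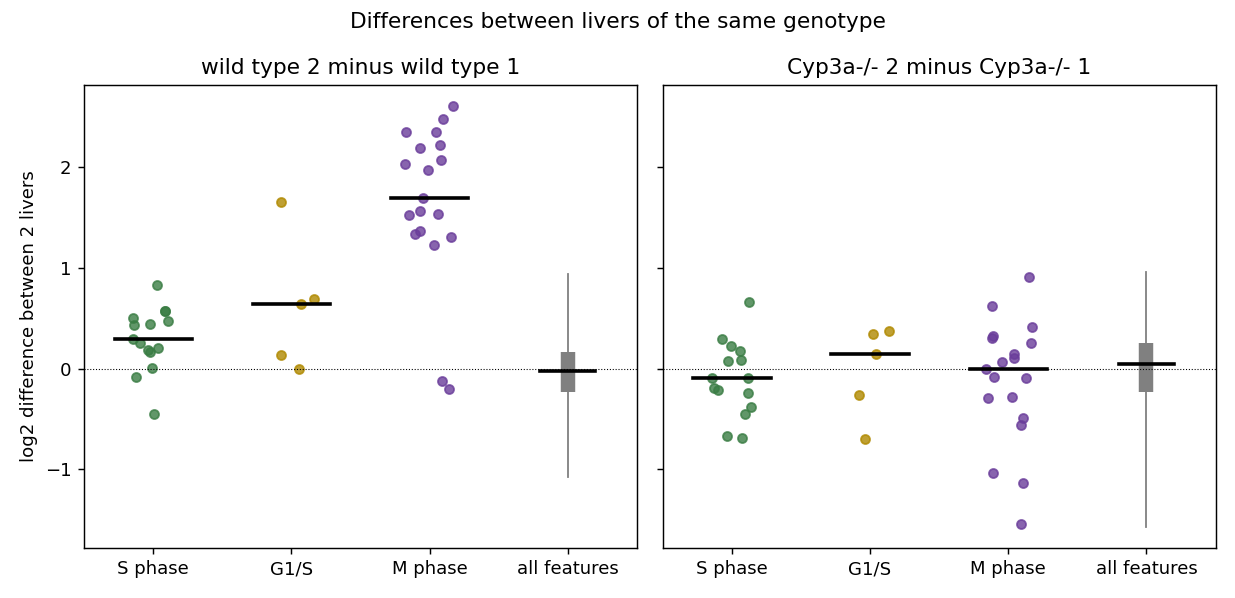
Log2 difference between the 2 livers of a genotype (y axis) for S phase, G1/S control and M phase genes, each point 1 gene, beside the spread of all 17406 features (thick bar, 25th to 75th percentile, and thin bar, 1st to 99th), with horizontal lines at the medians. M phase genes in wild type have a median of 1.69, above the 99th percentile of all features at 0.94, and in Cyp3a-/- liver a median of -0.01. The wild type livers shared a slide and the Cyp3a-/- livers did not.

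The cyclins and their kinase, which start mitosis, had this form. Ccnb1, the main mitotic cyclin, read -3.68 and -1.08 in wild type livers 1 and 2 and -4.19 and -3.89 in Cyp3a-/- livers 1 and 2. Its signal was 6.08-fold higher in wild type liver 2 than in wild type liver 1, and its genotype difference of -1.66 ± 0.81 (SE) had a limma adjusted p of 0.579. A further pair of Ccnb1 probes, well above background in wild type liver 2 alone, gave steps of 2.49 and 2.18 between the wild type livers beside 2.60 for the first.

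Ccna2, the cyclin of S phase and early mitosis, read -3.55 and -1.52 in wild type and -4.11 and -3.79 in Cyp3a-/- liver. Ccnb2, the second B-type cyclin, read -1.97 and 0.21 against -1.18 and -1.74, so that wild type liver 1 was the lowest of the 4 and the sign of the genotype difference of -0.58 turned to 0.51 without wild type liver 2. Cdk1, the kinase they bind, read -3.94 and -2.57 against -3.25 and -4.79, the last not well above background. Cyp3a-/- liver 1 thus lay above wild type liver 1 for both Ccnb2 and Cdk1.

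Foxm1, the transcription factor of the mitotic set, read -3.91 and -2.69 in wild type and -5.51 and -4.60 in Cyp3a-/- liver, with Cyp3a-/- liver 1 not well above background. Its difference of -1.76 ± 0.49 (SE) had a limma adjusted p of 0.344. Cks2, a small subunit of cyclin-dependent kinases, was the exception among the M phase genes. Cks2 read -0.76 and -0.97 in wild type and -0.28 and -0.57 in Cyp3a-/- liver, 0.44 higher in Cyp3a-/- liver and lowest in wild type liver 2.

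Of the mitotic kinases and the machinery of cyclin destruction, all 5 genes that passed the filter were highest in wild type liver 2. Plk1, a kinase of mitotic entry and spindle assembly, read -3.25 and -0.77 in wild type and -3.99 and -4.08 in Cyp3a-/- liver. The mean was -2.01 ± 1.75 against -4.04 ± 0.06 (SD, n = 2 each), so the spread lay in the wild type livers, and the limma adjusted p was 0.478. Cdc20, which activates the anaphase-promoting complex, read -1.23 and 1.12 in wild type and -2.60 and -1.98 in Cyp3a-/- liver. Here wild type liver 1 also lay above both Cyp3a-/- livers, by 1.06 over their mean, and the difference of -2.23 ± 0.75 (SE) had a limma adjusted p of 0.432.

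Ube2c, the ubiquitin-conjugating enzyme of that complex, read -3.08 and -0.86 in wild type and -3.56 and -3.31 in Cyp3a-/- liver. Its other probe, well above background in the wild type livers and in neither Cyp3a-/- liver, gave a step of 2.47 between the wild type livers beside 2.22. Aurka, the centrosomal Aurora kinase, read -2.84 and -0.88 against -3.25 and -3.33. Cdca3, which promotes mitotic entry, read -2.22 and -0.52 against -2.28 and -2.17. For Cdca3, wild type liver 1 could not be set apart from the Cyp3a-/- livers, lying 0.01 above their mean. Bub1b, of the spindle checkpoint, read -5.04 and -4.07 against -5.54 and -4.83, of which only the wild type liver 2 value was well above background.

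Among genes of the spindle and of mitotic chromosomes, Mki67 encodes the surface protein of mitotic chromosomes used as the proliferation marker Ki-67. Mki67 read -1.62 and -0.10 in wild type and -2.49 and -2.34 in Cyp3a-/- liver, a difference of -1.56 ± 0.49 (SE; limma, adjusted p = 0.396). Its other probe, also well above background in all 4 livers, gave a step of 1.47 between the wild type livers beside 1.52. Top2a, the topoisomerase that untangles sister chromatids, was detected in wild type liver 2 at -3.07 and not well above background in the others, at -6.004, -6.60 and -5.70.

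Birc5 (survivin) and Cdca8 (borealin) are subunits of the chromosomal passenger complex. Birc5 read -0.69 and 0.84 in wild type and -1.38 and -0.96 in Cyp3a-/- liver. Cdca8 read -1.69 and -0.39 against -1.92 and -2.41. On these probes both were lower in both Cyp3a-/- livers, with differences of -1.25 and -1.13. Another Cdca8 probe that passed the filter read -4.48 and -3.64 against -4.44 and -4.45, so the genotypes overlapped on it. Its difference was -0.39 and its step between the wild type livers 0.84, with wild type liver 1 not well above background. Another Birc5 probe that passed the filter had no overlap and a difference of -1.59. Aurkb, the kinase of the chromosomal passenger complex, was not well above background in any liver.

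Of the spindle proteins, Kif20a, a kinesin of cytokinesis, read -3.78 and -1.44 in wild type and -3.81 and -3.82 in Cyp3a-/- liver, 5.08-fold higher in wild type liver 2 than in wild type liver 1. Prc1, which bundles midzone microtubules, read -2.60 and -0.53 against -2.49 and -3.53. Spc25, of the kinetochore complex NDC80, read 1.64 and 2.97 against 2.29 and 1.15. Prc1, Spc25 and Cdk1 were the 3 M phase genes with a step over 1 between the Cyp3a-/- livers, each lower in liver 2, where 5.45% of all features had a step of that size in either direction. The mitotic motor Kif11 was well above background in wild type liver 2 alone, at -4.87.

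Nusap1, a microtubule-binding spindle protein, read -4.17 and -2.62 in wild type and -4.75 and -4.69 in Cyp3a-/- liver. Both Cyp3a-/- values were not well above background, so the signal was at least 2.51-fold lower there (limma, adjusted p = 0.478). For Tpx2, which activates Aurora A, the 2 probes disagreed. The probe that passed the filter read -4.14 and -4.27 in wild type and -4.43 and -4.71 in Cyp3a-/- liver, while the other, for a different transcript, read -4.82 and -2.86 against -5.13 and -5.56 and was well above background in wild type liver 2 alone. With Cks2, the first Tpx2 probe was the exception to the step between the wild type livers.

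Wild type liver 1 stood between its partner and the Cyp3a-/- livers. Set against the mean of the Cyp3a-/- livers, it was higher by a median of 0.41 over the M phase genes, and wild type liver 2 by 2.32. Over the S phase genes these medians were 0.08 and 0.64, and over the 5 genes of G1/S control 0.54 and 1.07. Wild type liver 1 was above both Cyp3a-/- livers for 13 of 19 M phase, 8 of 15 S phase and 5 of 5 G1/S control genes, against 32.7% of all features. The 2 Cyp3a-/- livers had a median step of -0.01 for M phase and -0.09 for S phase genes.

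Split by promoter letters, the 20 genes with the cell cycle homology letters that passed the filter had a median step of 1.44 between the wild type livers and a median genotype difference of -1.19. The 12 with a window and without those letters had medians of 0.23 and -0.44. The 13 with E2F-type letters had a median step of 0.57 and a median genotype difference of -0.77, and the 19 without had 1.53 and -0.85. E2f8, Rrm2 and Ccnb1 hold both kinds of letters, as printed above. The split by homology letters largely follows phase, as 17 of 20 M phase windows and 5 of 18 S phase windows hold them. Outside M phase the genes with them had steps of 0.29 (Mcm2), 0.83 (Mcm5), 0.43 (Rrm2), -0.45 (Tk1), 0.58 (Uhrf1), 0.14 (Ccne1) and 0.64 (E2f8). Nusap1 and Cks2, M phase genes with a window but without these letters, had steps of 1.56 and -0.21. A part of the letters apart from phase was not tested. The medians above are descriptions over genes, which are not independent of each other.

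Genes of the same processes outside the 46 were read in the same way. Of 66 other mitosis genes, 29 passed the filter, 27 were highest in wild type liver 2 (24% of all features were) and 11 stood more than 1 log2 unit above wild type liver 1 there (0.856% of all features did). Limma called 0 of the 29 in either direction, and at an unadjusted p under 0.05, 12 were lower and 0 higher, beside 5.4% and 4.62% of all features, with a median difference of -0.91. Of the 29, 4 passed the filter only through the wild type livers, which by itself favours a lower value in Cyp3a-/- liver, and Sgo1 and Cdca2 are among them. The genes of smallest p in this list were Cdca2, Hmmr and Sgo1, in that order. Sgo1 (shugoshin, which guards centromeric cohesion) read -3.87 and -2.23 in wild type and -5.16 and -5.08 in Cyp3a-/- liver. Neither Cyp3a-/- value was well above background, and the signal was at least 3.37-fold lower there (limma, adjusted p = 0.313). Hmmr, a spindle protein, read -1.65 and -1.30 against -2.51 and -2.24 (limma, adjusted p = 0.287). Cdca2 read -4.28 and -3.17 against -5.54 and -5.31, not well above background in Cyp3a-/- liver and at least 2.11-fold lower (limma, adjusted p = 0.268).

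Of 51 other S phase and replication genes, 40 passed, limma called 0, and at an unadjusted p under 0.05, 6 were lower and 2 higher, beside the same 5.4% and 4.62%, with a median difference of -0.14. Only 1 of the 40 (Asf1b) stood more than 1 log2 unit higher in wild type liver 2 than in liver 1. The uracil glycosylase Ung read 7.28 and 7.24 against 7.86 and 7.98 (limma, adjusted p = 0.323). Mcm8, a helicase of recombination, was not well above background in wild type at -5.27 and -5.00 and read -4.42 and -4.37 in Cyp3a-/- liver (limma, adjusted p = 0.316). Mcm8 passed the filter only through the Cyp3a-/- livers, which by itself favours a higher value there. Through the wild type livers only, 1 of the 40 passed, which favours a lower value in Cyp3a-/- liver.

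Upstream of the cycle, 1 gene passed the adjusted test. Trp53inp1, a p53 target that promotes cell cycle arrest and autophagy, read 1.47 and 1.31 in wild type and 3.14 and 3.09 in Cyp3a-/- liver, and rose by 1.72 ± 0.18 (SE; limma, adjusted p = 0.0418). Of 14 alternatives 10 ended this call, among them leaving out any liver but Cyp3a-/- liver 2, and the limma adjusted p lay between 4.79e-06 and 0.498, with a difference between 1.29 and 1.80. Trp53inp1 was the only call among the 17 of 18 p53 targets other than Cdkn1a that passed the filter, whose median difference was -0.05. Of all features limma called 0.276%. The p53 targets Phlda3 and Plk2 lay on the other side, Phlda3 at -1.87 and -1.63 against -2.97 and -2.72 (limma, adjusted p = 0.203) and Plk2 with a difference of -0.46. The list as measured therefore had no common direction, with 9 genes below 0 and 8 above.

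Of 26 regulators of G1 and of quiescence, 24 passed, with a median of 0.05. Limma called 0 of the 24, where it called 0.276% of all features. At an unadjusted p under 0.05, 2 were higher and 0 lower, beside 4.62% and 5.4% of all features. Myc, a growth-driving transcription factor, read -3.31 and -2.87 in wild type and -1.71 and -1.58 in Cyp3a-/- liver, higher in both Cyp3a-/- livers by 1.44 ± 0.22 (SE; limma, adjusted p = 0.137). Btg1, an antiproliferative factor, read 3.27 and 3.197 against 3.82 and 3.97 (limma, adjusted p = 0.33), but the mean of its probes had a difference of -0.061. Cdk2, partner of cyclins E and A, read -2.23 and -1.90 against -2.41 and -2.60. Of 14 hepatocyte growth signals and receptors, 8 passed and limma called 0. At an unadjusted p under 0.05, beside the same shares of all features, 1 was lower and 0 higher. That gene was Egfr, the receptor for epidermal growth factor, at 5.20 and 5.20 in wild type and 4.28 and 4.003 in Cyp3a-/- liver (difference -1.06 ± 0.19, limma adjusted p = 0.196), while Igf1 and Hgf had differences of 0.21 and -0.21.

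Markers of the cells that a liver sample can hold were read in the same 4 livers. Limma called 0 of the 58 marker genes that passed the filter in 11 lists, where it called 0.276% of all features. At an unadjusted p under 0.05, 6 of the 58 were lower and 0 higher, beside 5.4% and 4.62% of all features. Hepatocyte markers, of which 7 of 8 passed, summed to between 11.20 and 11.49 (log2) in the 4 livers, and the samples carry the labelled tissue. Erythroid markers, 5 of 10 passing, summed to 6.52 and 6.75 in wild type and 5.54 and 6.23 in Cyp3a-/- liver, highest in wild type liver 2. By gene, 3 of the 5 were highest in wild type liver 2 and the other 2 in Cyp3a-/- liver 2. Epb42 and Rhag of erythroid cells were not well above background in any liver. Cholangiocyte markers, 5 of 6 passing, summed to 0.09 and 0.74 in wild type and 0.49 and 0.29 in Cyp3a-/- liver, again highest in wild type liver 2, though only 3 of the 5 were higher there than in wild type liver 1; Epcam was not well above background in any liver. Kupffer cell markers, 8 of 8 passing, summed to 5.55 and 5.59 against 5.20 and 5.39. Only 3 of these 8 were higher in wild type liver 2 than in wild type liver 1. The part of these cell types in the M phase values of wild type liver 2 was not tested.

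The remaining lists did not follow wild type liver 2. B and plasma cell markers, 5 of 7 passing, were highest in wild type liver 1, at 0.03 and -0.43 in wild type and -1.07 and -0.55 in Cyp3a-/- liver. T and NK cell markers (6 of 8) summed to 4.07 and 3.41 against 4.15 and 3.84, and neutrophil markers (5 of 9) to 1.62 and 1.08 against 1.80 and 1.34; Ngp, Ltf and Mpo were not well above background in any liver, and the other 5 measured, Elane and Camp of myeloid precursors among them, were so in all 4. The summed markers of monocyte-derived macrophages (3 of 5), sinusoidal endothelium (6 of 6) and stellate cells (7 of 7) were higher in wild type liver 1 than in liver 2, with 1 gene of each list higher in liver 2. Of the fetal and neonatal liver markers, Afp alone was detected, at -1.32 and -2.19 against -1.90 and -1.29, with Igf2, Dlk1 and Gpc3 not well above background.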

How the data were processed

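Liver RNA from 2 mice of each genotype was hybridised to 1-colour Agilent arrays, per the labels. The authors deposited scanner output, for which the submitters' processing notes name Agilent Feature Extraction 11.5.1.1: processed intensity, background-subtracted but not normalized between arrays, with flags as other columns per the file headers. The deposited log2 table of the authors, whose scale is not stated, served as an alternative. In it each probe is centred on its own median, so it gives differences between arrays and no level.

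Here log2 processed intensity minus each array's 75th percentile was averaged over spots of a probe, leaving out control spots and outlier flags. Of 39429 probes, 28025 had 1 symbol through RefSeq accessions. A gene was read from its brightest probe well above background on both arrays of a genotype. Limma 3.58.1 in R 4.3.3 (lmFit, eBayes, Benjamini-Hochberg over 17406 features, 13094 of them named) compared genotypes. The fit was then run on simulated data with means from these arrays and variances drawn from limma's model of them. The simulated arrays held no slide effect and no outlying liver, so the run cannot show how the fit behaves with either. The number of arrays limits the precision. Every cell cycle gene could be named, with values for those that passed, of other lists the 3 genes of smallest p, and of marker lists those at background. Some genes that this rule names are not reported here. Asf1b, Elane and Camp were chosen after their values were seen. The genes, lists and tests were chosen with earlier results of these data known. Alternatives were the scaling, quantile normalization, normexp (offset 50), the filter, probe averaging, slide, replicate number, the authors' table and each liver left out.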

Additional observations from a re-analysis of the deposited data

How the results depend on the processing

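No member passed an adjusted p under 0.05 in limma with quantile normalization, normexp, no filter, a filter on all 4 arrays, averaged probes, the slide as a random block or the authors' table. Median scaling called 18 members and 12 other cell cycle genes. It moved log2 differences by a common small shift, but limma's prior degrees of freedom became infinite there and 659 features were called in place of 48. The replicate number as a block called 1 member (Rrm2) and 1 other cell cycle gene. Same-numbered arrays deviated with a correlation of -0.10, so the numbers were not taken as pairs, and crossing them, an alternative chosen after seeing the data, called 1 member (E2f8) and 0 others. Leaving out each liver in turn called 0 to 2 members and 0 to 1 other cell cycle genes, with 7 (without wild type liver 2) to 26 (without wild type liver 1) members at an unadjusted p under 0.05 in place of 17. That number was 10 without a filter and 7 with the slide as a random block. The S phase median lay between -0.64 and -0.077 and the M phase median between -2.32 and -0.41 over these omissions, which assume that a lone liver varies like the other genotype. Over the same omissions the sign turned for Mcm2 (-0.22 to 0.072, above 0 without wild type liver 2 and, at 0.030, without Cyp3a-/- liver 2), Cdt1 (-0.12 without Cyp3a-/- liver 1 to 0.32), Pcna (-0.082 without wild type liver 1 to 0.36), Lig1 (-0.51 to 0.18 without Cyp3a-/- liver 2), Ccnb2 (-1.68 to 0.51 without wild type liver 2) and Spc25 (-1.25 to 0.085 without wild type liver 2). With averaged probes Btg1 turned to -0.061. The cause was not tested. The planned estimate of a slide correlation gave no value with 4 arrays, so a preset correlation of 0.5 was used, chosen after seeing the data. Signal over background limits Nusap1, Foxm1, Cdk1, Tyms and Tpx2, which lay near background in part of the livers.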
